A study of Mus musculus with 8 samples.

Results

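B16 mouse melanoma cells exposed to SEMA3E for 8 h were compared with B16 cells exposed to it for 2 h, across all genes on the array. The comparison uses the 2 arrays labelled as 8 h of SEMA3E and the 2 labelled as 2 h, which are 4 of the 8 arrays of the series. The other 4 arrays are untreated B16 cells at 0 h (2 arrays) and B16 cells given cytochalasin D, a drug that stops actin filaments from growing, for 8 h (2 arrays). They entered the fit to estimate the spread, and the untreated arrays served to say whether a gene that differed between 2 h and 8 h had left its starting level early or late. B16 is an established pigmented mouse tumour line, grown here in medium with serum. The labels name no genotype or allele, and the dose of SEMA3E and any vehicle are not given in the sources used here. The labels call the 2 samples of each group biological replicates. No 2 h or 8 h untreated culture is among the samples, so time in culture and time with SEMA3E cannot be told apart.

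SEMA3E is a secreted class 3 semaphorin, a guidance protein known from axons and blood vessels. It binds plexin D1 directly, and neuropilins and the VEGF receptor KDR can join the complex. The cytoplasmic part of the plexin acts on small GTPases such as R-Ras and Arf6, which loosens integrin contacts and collapses the actin network within minutes. Transcription follows in waves: immediate early genes can peak and fall within hours, while genes that need new transcription factors come later. A comparison of 8 h with 2 h finds both genes that left their starting level early and came back and genes that moved late. The untreated cells are needed to tell these apart.

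Each value below is a log2 signal relative to the array's own 75th percentile, taken over those probes that each of the 8 arrays measured well above background. A level of 0 is therefore a bright gene, and levels of different genes are not compared. A gene was tested through its brightest probe where that probe was well above background on both arrays of at least 1 group, which left 18073 genes. Differences are 8 h minus 2 h, with the standard error (SE) of limma, a linear model that shares the spread across genes. P-values were adjusted by the Benjamini-Hochberg method over all 18073 genes.

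All 10 melanocyte genes checked (Mitf, Sox10, Tyr, Tyrp1, Dct, Pmel, Mlana, Slc45a2, Gpr143 and Mc1r) were well above background on all 4 SEMA3E arrays. Their summed level was 6.97 and 7.19 at 2 h and 6.66 and 6.79 at 8 h. Of the markers of other cell types, 2 of 8 fibroblast genes (Col1a1 and Col1a2), 3 of 8 macrophage genes (Csf1r, Cd68 and Itgam), 3 of 8 endothelial genes (Pecam1, Kdr and Vwf), 1 of 8 epithelial genes (Krt14) and 3 of 6 T cell genes (Cd3e, Cd4 and Lck) were well above background on all 4. The 2 h arrays were dim: the 75th percentile of their raw signal was 59.3 and 61.1, against 154 and 141 at 8 h, and 39.1% and 37.8% of their spots were well above background, against 46.6% and 48.2%. Replicate 2 at 2 h had 214 outlier spots, against 6 to 24 on the other 7 arrays. Replicate 2 at 8 h had a mean negative control signal of 51.6, against 28.1 to 32.4 on the others. In both groups the replicates differed: 14.1% of genes were over 2-fold apart between the 2 h replicates and 9.67% between the 8 h replicates. Replicate 1 at 2 h was nearest to replicate 1 of the untreated cells (Pearson correlation across genes 0.9866), not to its own partner (0.9733).

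No gene passed the adjusted threshold of 0.05 between 8 h and 2 h (0%, limma). Before adjustment 2099 genes had p under 0.05, of which 1492 (8.26% of those tested) were higher at 8 h and 607 (3.36%) were lower. The smallest adjusted p was 0.16, for Catsperg2. Both 8 h arrays lay above both 2 h arrays in 5041 genes (27.9%) and below them in 4090 (22.6%). With a difference of at least 1 log2 unit (2-fold) as well, 1712 genes (9.47%) were higher and 422 (2.33%) lower. Of the 1712, 903 were well above background on all 4 SEMA3E arrays, and 204 had entered the test only through the 8 h arrays. Of the 422, 326 were well above background on all 4, and 30 had entered only through the 2 h arrays. The lean towards higher values at 8 h depended on the scaling: of genes at p under 0.05, 976 of 1924 were higher after cyclic loess, 965 of 1993 after quantile normalization, 924 of 2405 when the 75th percentile was taken over all probes, and 691 of 5374 after normexp. The test's reach was measured on simulated data, with independent noise in each gene and no shift of a whole array or with level. There the test called 2 of 50 genes changed 2-fold, 25 of 50 changed 4-fold, 43 of 50 changed 8-fold and 49 of 50 changed 16-fold. It also called 13 unchanged genes. The real differences followed the level, as given below, so the reach in the real arrays was not measured. Without replicate 1 at 2 h the same comparison called 461 genes, which treats the remaining 2 h array as varying like the other groups.

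The difference also followed the level of the gene. The median of 8 h minus 2 h was 0.51 in the dimmest decile of genes and -0.27 in the brightest decile, where 21.4% of genes had a difference above 0. Over all genes it was 0.09. The brightest decile was 0.26 above the untreated cells at 2 h and 0.01 above them at 8 h, so most of the difference there lay at 2 h. Within genes the same was seen: among 3597 genes with several tested probes, the dimmer probes' median exceeded the brightest probe's difference in 69.5%. The part of array brightness in any single difference was not tested.

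**Figure D1:**
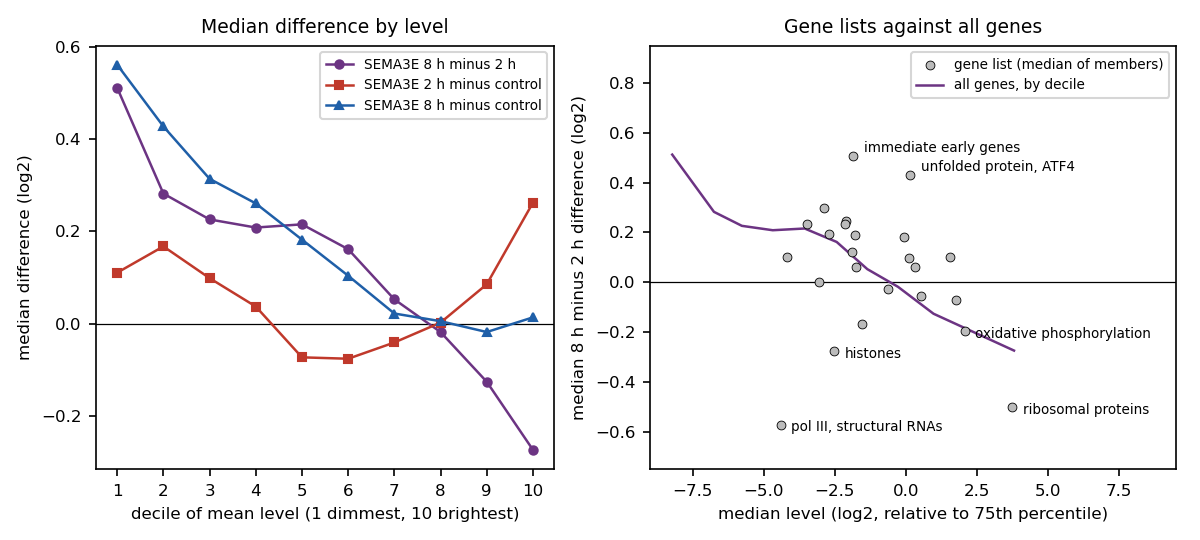
Left, the median log2 difference in each decile of the genes by mean level (1 dimmest, 10 brightest), for 8 h minus 2 h, 2 h minus untreated and 8 h minus untreated; the 8 h minus 2 h line falls from 0.51 to -0.27. Right, each grey point is the median 8 h minus 2 h difference of a gene list against its median level, with the line of all genes by deciles; the ribosomal proteins lie at -0.50, the immediate early genes at 0.51.

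Rab27a was low at 2 h and back at 8 h. RAB27A is the small GTPase that tethers melanosomes to actin through melanophilin and myosin Va. Its level was -1.29 and -1.31 in untreated cells, -4.52 and -5.07 at 2 h, and -1.49 and -0.63 at 8 h. The 2 h arrays thus lay far below all the others, cytochalasin D included (-0.48 and -1.37). The 8 h level was 3.73 ± 0.42 (SE, n = 2 arrays a group) above the 2 h level, with an adjusted p of 0.208. A dimmer Rab27a probe showed 1.32 ± 0.40, so both probes lay on the same side of 0 but differed in size. The difference lay between 1.90 and 4.17 in the 19 alternatives computed.

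The partner genes did not move as one. Mlph, which encodes melanophilin, was 0.07 and 0.45 in untreated cells, -0.86 and -0.40 at 2 h and 0.46 and 0.80 at 8 h. Its 2 h arrays lay below all the others, and the 8 h level was 1.26 ± 0.29 higher (adjusted p 0.371). Myo5a, the myosin Va gene, was 1.49 and 1.41 at 2 h and 0.71 and 1.07 at 8 h, a difference of -0.56 ± 0.32 in the other direction. Of the 33 pigmentation genes tested, 13 were above 0 and 20 below, none passed, and the median was -0.06 against 0.09 over all genes.

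Promoter sequence of both low genes and of the pigment enzymes Tyr and Tyrp1 is shown because MITF, the melanocyte master factor, binds E-box motifs. The stretches are the RefSeq table's for build GRCm38.p6, lie upstream of the annotated start and read 5′ to 3′ on the gene's strand, with each CACGTG or CATGTG in capitals.
Rab27a (start 2 of 2, chr9:73063898-73063997, plus strand): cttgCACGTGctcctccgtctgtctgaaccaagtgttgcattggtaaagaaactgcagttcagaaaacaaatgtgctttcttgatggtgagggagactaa
Mlph (chr1:90915000-90915099, plus strand): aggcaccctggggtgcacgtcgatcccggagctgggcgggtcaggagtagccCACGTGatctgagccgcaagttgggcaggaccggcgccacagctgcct
Tyrp1 (chr4:80834113-80834212, plus strand): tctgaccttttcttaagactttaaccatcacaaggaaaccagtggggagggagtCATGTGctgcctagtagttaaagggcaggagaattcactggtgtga
Tyr (chr7:87493513-87493612, minus strand): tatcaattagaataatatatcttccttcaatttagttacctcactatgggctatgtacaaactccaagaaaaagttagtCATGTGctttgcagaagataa
CACGTG, which reads the same on both strands, occurred in 7.15% of all 32851 promoters of 300 bases, and CATGTG, searched on both strands, in 14.2%; the motifs do not overlap each other. Of the 25 pigmentation genes with a promoter in the table, 8 held CACGTG (median difference 0.03) and 17 did not (median -0.06). The 8 with CATGTG had a median of 0.05 and the 17 without it -0.06. Tyr itself was 0.79 ± 0.34 higher at 8 h and Tyrp1 -0.59 ± 0.27, with adjusted p-values of 0.429 and 0.438. The genes that share a motif therefore lay on both sides of 0.

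Ovca2, a serine hydrolase gene, and Ifi208, an interferon-inducible gene of the AIM2 family, had the same dip. Ovca2 was -4.09 and -3.81 in untreated cells, -6.21 and -6.01 at 2 h and -4.02 and -3.48 at 8 h. Its difference was 2.36 ± 0.32 (adjusted p 0.287), which was 0.50 with normexp correction. Ifi208 was -0.35 and -0.55 untreated, -1.97 and -1.78 at 2 h, and -0.30 on both 8 h arrays. The difference was 1.57 ± 0.25 (adjusted p 0.305), and a dimmer probe gave 0.75. In both genes the 2 h arrays were the lowest of the 8.

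Patj, a scaffold of epithelial polarity, was 2.38 ± 0.36 higher at 8 h by its brightest probe, but its other 3 probes gave 0.07, 1.06 and 0.58. Bcl9l, a Wnt coactivator, Zfp324, a zinc finger gene, and Speer1 were not well above background on either 2 h array. Against the lowest measurable signal of those arrays Bcl9l was at least 4.94-fold and Zfp324 at least 3.37-fold higher at 8 h. These 2 and Speer1 had adjusted p-values of 0.305. With normexp, which was run with an added offset of 50, all 3 differences were below 0 (Bcl9l -0.15, Zfp324 -0.40, Speer1 -0.38). Their direction thus turned with this setting, and the part of the offset was not tested. In a further 2 dips 1 array stood far below the other: Kctd5 was -2.66 and -6.92 at 2 h and Lnx2, a ubiquitin ligase gene, -3.65 and -7.12, against levels of at least -2.52 in both genes at 8 h. Uba1y (-6.52 and -8.34 at 2 h) and the myelin gene Pmp2 (-8.34 and -9.40) had both 2 h arrays low.

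H1f4, the linker histone H1.4 gene, was high at 2 h only. It was -1.67 and -2.22 in untreated cells, 0.39 and 0.89 at 2 h, and -1.47 and -1.62 at 8 h. The 2 h arrays lay above all the others, and the cytochalasin D arrays were the lowest at -3.68 and -3.11. The 8 h level was -2.18 ± 0.34 relative to 2 h (adjusted p 0.305). Across the 19 alternatives this stayed between -2.45 and -1.94. H1f0, the replacement linker histone gene, went the other way: -6.93 and -7.90 at 2 h, with neither array above background, and -4.58 and -3.48 at 8 h. Its untreated replicates were -6.70 and -3.54, so replicate 1 of the untreated cells stood with the 2 h arrays. H1f2 differed by 0.00 ± 0.31.

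The promoters of H1f4 and H1f2, which belong to the replication-dependent cluster, are set side by side. These genes share a class of promoter, but the values above differed between them, which was not tested. Capitals mark the H1 box AAACACA, the CCAAT box and the TATA box TATAAA; both stretches are the 150 bases before the start, from RefSeq, build GRCm38.p6.
H1f4 (chr13:23622559-23622708, minus strand): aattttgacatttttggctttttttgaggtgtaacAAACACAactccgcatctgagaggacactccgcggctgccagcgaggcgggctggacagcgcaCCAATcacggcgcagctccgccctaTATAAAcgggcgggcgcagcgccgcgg
H1f2 (chr13:23738657-23738806, plus strand): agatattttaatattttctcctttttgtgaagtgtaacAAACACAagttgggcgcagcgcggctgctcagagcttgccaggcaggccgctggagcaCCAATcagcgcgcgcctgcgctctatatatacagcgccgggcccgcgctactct
Counted from the start site, the H1 box begins at -115 in H1f4 and at -112 in H1f2, and the CCAAT box at -52 and -54. TATAAA was matched in H1f4 only; no match says only that these letters are not in the H1f2 window. On both strands AAACACA occurred in 7.18%, CCAAT in 37.4% and TATAAA in 13.6% of all promoters of 300 bases, and the 3 motifs do not overlap each other. Of 22 histone genes with a promoter in the table, 13 held TATAAA, and 12 of them were below 0 with a median of -0.41. Of the 9 without it, 4 were below 0, with a median of 0.00. The 5 with the H1 box had a median of -0.02 and the 17 without it -0.32. For CCAAT the median was -0.32 in the 18 with it and 0.46 in the 4 without. These splits rest on exact letters and were not tested. Over the 26 histone genes tested, 18 were below 0 and 8 above, and the median was -0.28. None passed. At unadjusted p under 0.05 there were H1f4 and H2bc4 (-0.92) below and H1f0 (10.4-fold by the group means) above, named after their values were seen. The list's median was below 0 in all 19 alternatives. Clustered histone genes are near copies of each other, so a probe may also report a neighbour.

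A structural and a long non-coding RNA had their highest signal at 2 h. Rmrp is the RNA of RNase MRP, which cuts ribosomal RNA precursors, and Kcnq1ot1 is the paternally expressed antisense RNA that silences the imprinted Kcnq1 domain. Their 60-base probes, as the scanner files list them, are shown because each result rests on 1 tested probe.
Rmrp: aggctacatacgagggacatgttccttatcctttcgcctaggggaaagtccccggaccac
Kcnq1ot1: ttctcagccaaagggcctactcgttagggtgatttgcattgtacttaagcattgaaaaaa
Rmrp was -5.61 and -5.74 in untreated cells, -1.51 and -2.47 at 2 h and -4.14 and -4.42 at 8 h. It was thus highest at 2 h and still above the untreated cells at 8 h; the cytochalasin D arrays were at -6.22 and -5.08. The 8 h level was -2.29 ± 0.46 relative to 2 h (adjusted p 0.359), and -2.77 to -1.82 over the 19 alternatives. Kcnq1ot1 was -5.27 and -5.54 untreated, -3.21 and -2.80 at 2 h and -5.33 and -4.93 at 8 h. At 8 h it overlapped the untreated level, and the difference was -2.12 ± 0.36 (adjusted p 0.33). Of the 11 RNAs of this kind tested, 7 were below 0, with a median of -0.57 that was below 0 in all 19 alternatives but was -0.08 without replicate 1 at 8 h. Snhg5, a snoRNA host gene, was 1.34 higher at 8 h and H19 1.09 higher. None passed.

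**Figure D2:**
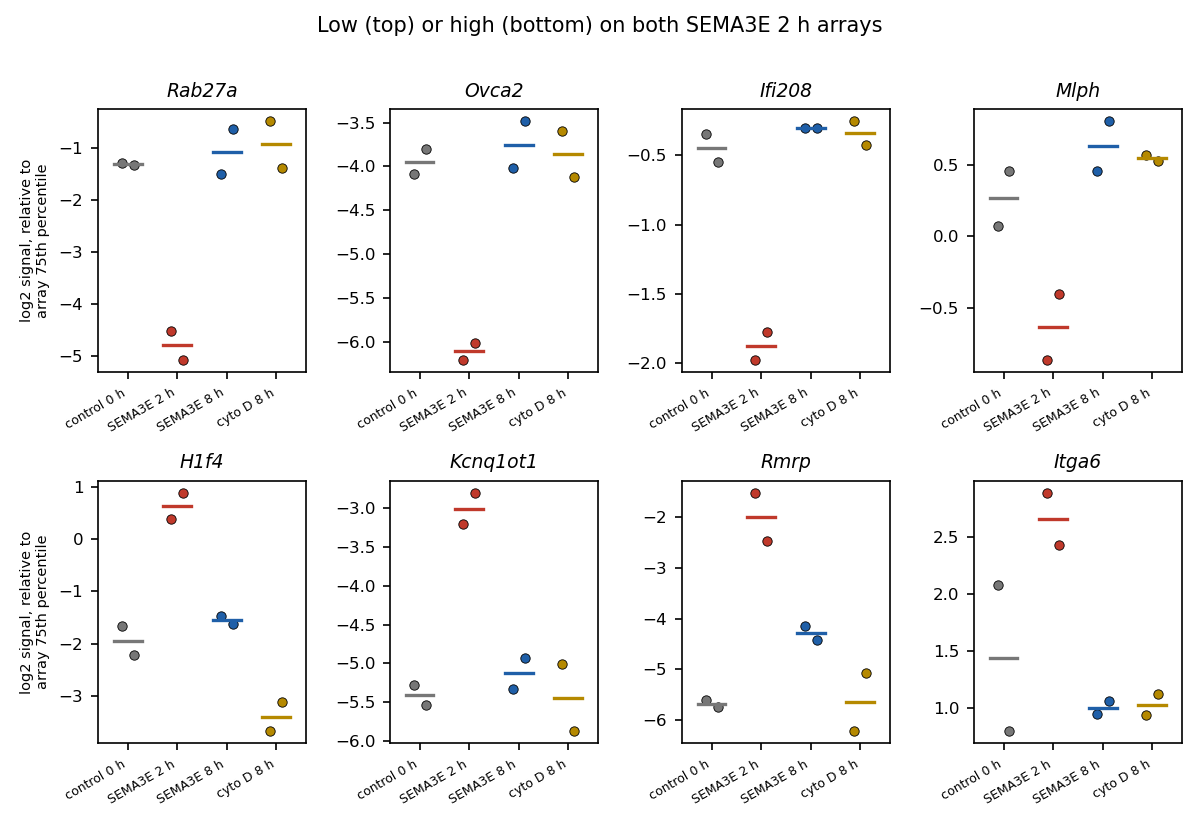
Log2 signal relative to the array's 75th percentile for 8 genes in the 4 groups; each point is 1 array and each bar the mean of 2. The 2 h points lie below all others in the top row (Rab27a at -4.52 and -5.07) and above all others in the bottom row (H1f4 at 0.39 and 0.89).

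Other genes were among those with the smallest p on the lower side at 8 h. Hbb-y, an embryonic globin gene, was -6.19 and -6.11 at 2 h and not well above background at 8 h (-8.03 and -7.65). Prkaa2, a catalytic subunit of AMP kinase, differed by -1.51 ± 0.33, Ddx6, a helicase of RNA storage bodies, by -1.45 ± 0.32 and Igsf3 by -1.37 ± 0.30. All 4 had both 8 h arrays below both 2 h arrays, as did 22.6% of all genes tested. They were chosen for their small p, which favours such a gap. Their adjusted p-values ran from 0.305 to 0.371. Cep164, a cilium gene, was -2.11 ± 0.41 by its brightest probe, but its 2 other probes gave 0.32 and 0.45. Gigyf1 was -1.15 ± 0.24 and its other probe 0.33. Mettl21c was well above background on both 2 h arrays and on neither 8 h array (-4.51 and -5.89 at 2 h, -9.32 and -7.43 at 8 h). Trim12c was -2.28 ± 1.40 by its brightest probe and -0.0048 by another. Mettl21c and Trim12c passed the filter only through the 2 h arrays, so a difference was built into their selection. Itga6, the laminin-binding integrin alpha 6 gene, was 2.89 and 2.43 at 2 h against 0.94 and 1.06 at 8 h, a difference of -1.65 ± 0.43 (adjusted p 0.379). Its untreated replicates were 2.08 and 0.80, and a dimmer probe gave -0.34.

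The leading late genes came from below background. Catsperg2, which encodes a subunit of the sperm calcium channel CatSper, was -10.47 and -10.29 in untreated cells, -9.12 and -9.34 at 2 h and -6.76 and -6.61 at 8 h. It was well above background on both 8 h arrays and on no untreated, 2 h or cytochalasin D array. It entered the test only through the 8 h arrays, so a difference was built into its selection. Its 8 h level was at least 2.64-fold above what the 2 h arrays could measure. In the late contrast, which sets 8 h against the mean of untreated and 2 h, Catsperg2 was the only gene to pass (0.00553% of those tested, limma adjusted p 0.0188); 1555 genes had an unadjusted p under 0.05. The call was lost with the replicate block (smallest adjusted p 0.0612), with quantile or cyclic loess normalization, with an intensity trend, with probes above background on all arrays, where it was not tested, with no filter, and without any 1 of the 8 arrays. With normexp correction its 8 h level was below its 2 h level (-0.50).

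Ccdc70, a coiled-coil gene, was below background except at 8 h (-7.23 and -6.57) and at least 2.28-fold higher there than at 2 h. Cfap57, a cilium and flagellum gene, was -6.86 and -6.34 at 8 h, at least 2.81-fold. Gbx1, a homeobox gene, was -6.32 and -6.11, at least 3.66-fold, and H2-Bl, a class I histocompatibility gene, at least 3.02-fold. Their adjusted p-values ran from 0.287 to 0.411. Dop1a, which takes part in Golgi traffic, was -6.05 and -4.83 at 8 h, with 2 h replicates at -9.48 and -6.92. All 5 passed the filter only through the 8 h arrays, so a difference was built into their selection; Dop1a was above background on 1 of 2 arrays in each other group. In 204 of the 1712 genes higher at 8 h only the 8 h arrays let the gene in. The mean negative control signal was 51.6 on replicate 2 at 8 h and 30.1 on replicate 1. Its part in these genes was not tested.

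As scaled here 20 genes were low at 8 h only, against 169 after quantile normalization and 85 after cyclic loess. Car8 (carbonic anhydrase related) was -6.01 and -6.15 at 2 h and -7.23 and -8.46 at 8 h, a difference of -1.77 ± 0.50. N4bp2l2 was -5.41 and -5.37 at 2 h and -6.93 and -6.35 at 8 h (-1.25 ± 0.30). Pbrm1, a chromatin remodelling subunit, was -1.35 ± 0.43, Saysd1 -1.38 ± 0.46 and Zfp518a -1.30 ± 0.34. In 4 of these 5 genes a second probe was tested, and it did not follow: 0.74 in Car8, 0.96 in N4bp2l2, 0.86 in Pbrm1 and 0.06 in Zfp518a. Another Pbrm1 probe gave -0.07. Over all genes with several probes and a brightest probe past 1 log2 unit (339 genes), the median of the other probes lay on the same side of 0 in 251 (74%).

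**Figure D3:**
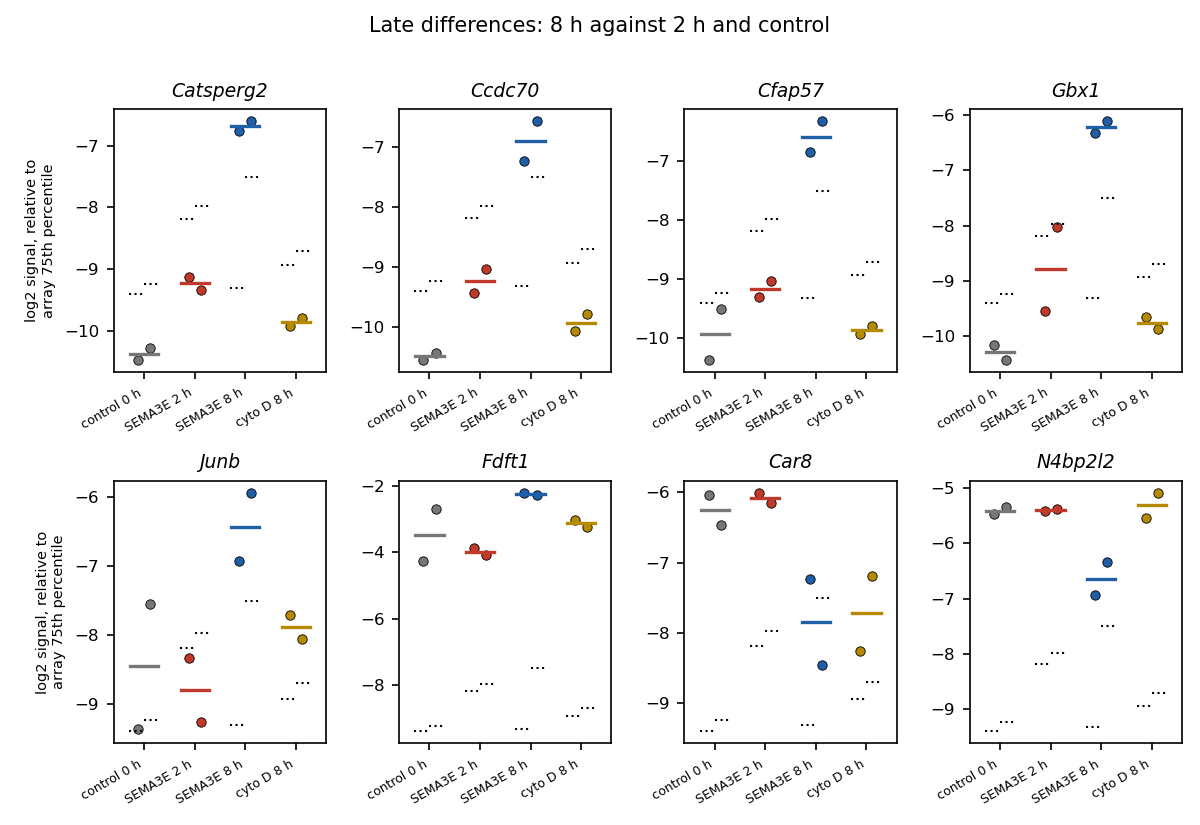
Log2 signal relative to the array's 75th percentile for 8 genes in the 4 groups; points are arrays, bars the mean of 2, and dotted lines the lowest signal counted as well above background on each array. The first 5 genes are above the dotted line at 8 h (Catsperg2 at -6.76 and -6.61) and below it at 2 h.

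Genes were also sorted by time, with no test, where the arrays of the groups did not overlap and the means were at least 1 log2 unit apart. High at 2 h against both other times were 199 genes (1.1%), and low at 2 h 441 (2.44%). High at 8 h against both were 379 (2.1%) and low 20 (0.111%). Beyond the untreated level at both times were 267 genes (1.48%) on the high side and 20 (0.111%) on the low side. These splits turned with the scaling: quantile normalization gave 137 high and 169 low at 8 h only, and 74 high and 159 low at both times, and cyclic loess 133 and 85, and 102 and 115. A gene can be in 2 classes: 10 of the 199 and 33 of the 379 were also on the list of 267 or 20. Of the 441, 210 were above background on all 8 arrays, and of the 379, 107 were. The filter let in 164 of the 379 only through the 8 h arrays and 23 of the 199 only through the 2 h arrays. Of the 267, 122 entered only through the 8 h arrays and 9 only through the 2 h arrays. A difference was thus built into the selection of these genes. In the contrast of 2 h with the mean of the other times no gene passed (0%, smallest limma adjusted p 0.204, for Rab27a), while 2263 had an unadjusted p under 0.05. After normexp it called 4060 genes and without replicate 1 at 2 h it called 551.

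**Figure D4:**
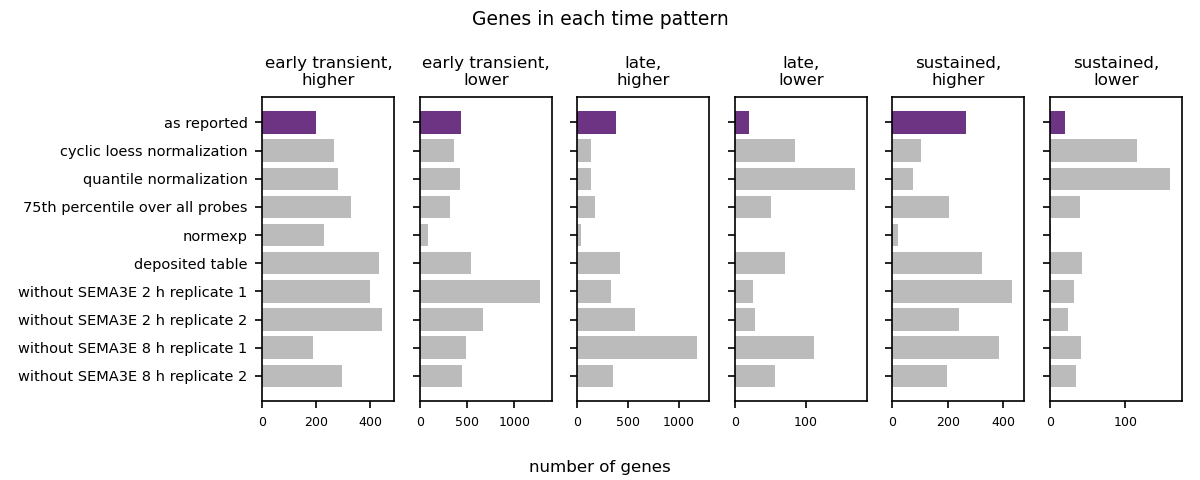
Number of genes in each of 6 time patterns as reported and under 9 alternatives, each panel on its own axis from 0. Genes low at 2 h only number 441 as reported, 1273 without replicate 1 at 2 h and 88 after normexp; genes high at 8 h only number 379 as reported and 133 after cyclic loess.

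Of the genes beyond the untreated level at both times, Catsperg2, Ccdc70, Gbx1 and Rmrp are described above. Catsperg2, Ccdc70 and Gbx1 were well above background on no untreated or 2 h array, so their rise at 2 h rests on signals below background. The lowest signal counted as well above background was -9.40 and -9.24 on the untreated arrays and -8.19 and -7.98 at 2 h. The part of this shift in their rise was not tested. The other named genes of this class, which follow, differed less between 8 h and 2 h. Gdf15, a stress-induced cytokine gene of the TGF-beta family, was -4.82 and -5.16 untreated, -3.79 and -1.41 at 2 h and -0.24 and -4.27 at 8 h. Its replicates were more than 2 log2 units apart at both times, and the difference was 0.35 ± 1.24. Ddit4, a stress-induced inhibitor of mTORC1, was -2.07 and -4.21 untreated, -0.61 and -0.69 at 2 h and -0.43 and -1.67 at 8 h (-0.40 ± 0.75). Macroh2a3 (-0.61 ± 0.47), Rln1, the relaxin gene (0.66 ± 0.38), and Gfra4 (0.20 ± 0.75) were the other high ones. Myc was 0.79 and 1.39 untreated, -0.57 and -1.29 at 2 h and -0.11 and -0.27 at 8 h, a difference of 0.74 ± 0.34 (adjusted p 0.436) that stayed above 0 in all 19 alternatives. The cytochalasin D arrays held Myc at 1.32 and 1.14. Dars, the aspartyl-tRNA synthetase gene, was -0.56 and -0.48 untreated, -1.52 and -2.27 at 2 h and -2.41 and -2.08 at 8 h. Zfp808 (0.21 ± 0.49), the gap junction gene Gja1 (0.24 ± 0.78) and Aim2 (0.31 ± 0.50) differed by less than their SE. Zfp808 was well above background on no SEMA3E array. It passed the filter only through the untreated arrays, so a difference from them was built into its selection. Aim2 was well above background on 0 of 2 arrays at 2 h and 1 of 2 at 8 h, and Gja1 on 1 of 2 at 2 h.

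In 24 lists of genes with shared roles no member passed in the comparison of 8 h with 2 h, and the counts below are read against all genes tested, of which 10192 of 18073 lay above 0 with a median of 0.09. Immediate early genes, the first wave after a stimulus, had the highest median of these lists, 0.51, and 20 of 30 were above 0. In 10 the arrays did not overlap on the high side, against 1 on the low side. Over all genes 27.9% lay above without overlap and 22.6% below, and 8.26% had unadjusted p under 0.05 on the high side. The immediate early list's median was 0.39 below the untreated cells at 2 h and 0.06 above them at 8 h. The 4 with unadjusted p under 0.05 were Junb, Hes1, Klf4 and Ier2; Klf4 and Ier2 were chosen after their values were seen. Junb, an AP-1 subunit gene, was -8.33 and -9.27 at 2 h and -6.94 and -5.94 at 8 h, at least 3.13-fold higher. It was well above background on both arrays of the 8 h group alone, so a difference was built into its entry to the test. Hes1, a Notch target, was by its 8 h mean 1.89-fold above the lowest measurable signal of the 2 h arrays. It was well above background on 0 of 2 arrays at 2 h and 1 of 2 at 8 h. Klf4 was 2.14 ± 0.66 and Ier2 3.62 ± 1.19 higher on the log2 scale. Klf4 and Ier2 were each well above background on 1 of 2 arrays at 2 h. The list's median was above 0 in all 19 alternatives, from 0.11 after normexp to 0.66 without replicate 2 at 8 h, but Junb and Hes1 were -0.46 and -0.56 after normexp. With probes above background on all 8 arrays the median was 0.23 over 23 genes, with 5 not overlapping on the high side. The rank was not stable: the median was 0.42 against 0.47 for the unfolded protein list after cyclic loess, and 0.22 against 0.31 and 0.32 for TGF-beta targets without replicate 1 at 2 h and without replicate 1 at 8 h.

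The other signalling genes were split. Fos was -4.17 and -4.41 at 2 h and -3.09 and -4.06 at 8 h (0.72 ± 0.35, adjusted p 0.447). Egr1 replicates were far apart at both times: -6.16 and -3.87 at 2 h and -2.73 and -7.96 at 8 h. Etv1, an ETS factor downstream of ERK, was -1.36 and -0.34 at 2 h and -2.27 and -2.26 at 8 h (-1.42 ± 0.36). Spry4, an inhibitor of ERK signalling, differed by 1.39 ± 0.45, and by -0.67 after normexp. It was well above background on 0 of 2 arrays at 2 h and 1 of 2 at 8 h. Of 16 ERK feedback genes 7 were above 0, with a median of -0.17. NF-kB targets had a median of 0.00, with Nfkb2 1.27 ± 0.42 higher and Nfkbia, its inhibitor's gene, -0.86 ± 0.28. TGF-beta targets had a median of 0.30, which was -0.0090 without replicate 2 at 8 h, 0.045 after quantile normalization and -0.31 after normexp. Skil differed by 1.73 ± 0.83, with 2 h replicates at -2.74 and -5.51.

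The cytosolic ribosomal protein genes were mostly below 0. Of 53 tested, 49 were below 0, 43 had both 8 h arrays below both 2 h arrays, and 14 had an unadjusted p under 0.05. The median was -0.50. Over all genes 22.6% lay below without overlap and 3.36% had such a p on the lower side. Rpl6 was 3.39 and 3.34 untreated, 3.95 and 4.40 at 2 h and 3.45 and 3.36 at 8 h, a difference of -0.77 ± 0.26 with 3 dimmer probes at -0.65, -0.56 and 0.88. Rps28 was 4.28 and 3.58 untreated, 4.85 and 5.27 at 2 h and 4.13 and 4.15 at 8 h (-0.92 ± 0.33). Both genes were highest on the 2 h arrays. The list was 0.54 above the untreated cells at 2 h and 0.06 above them at 8 h. These are among the brightest genes, whose decile had a median of -0.27, and with scalings that follow the level the list came nearer to 0: -0.14 after cyclic loess, with 25 below without overlap, and -0.11 after quantile normalization, with 23. Oxidative phosphorylation genes, also bright, had 32 of 43 below 0 and a median of -0.20, which was -0.08 and -0.05 after the same scalings. Ndufb3 (-0.77 ± 0.33) and Sdhd (-0.57 ± 0.26) led them. Among ribosome biogenesis genes Fbl, the rRNA methylase gene, was -0.77 ± 0.24 and Gnl3, a nucleolar GTPase gene, 0.95 ± 0.32; the median was -0.07.

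Cell cycle genes leaned little. S phase genes had a median of 0.10 (20 of 38 above 0), with the replication genes Cdc45 at 1.28 ± 0.30 and Clspn at 1.34 ± 0.34. Mitosis genes had 0.06 (21 of 36 above 0), with the phosphatase gene Cdc25c at 1.54 ± 0.36 and the separase gene Espl1 at 1.55 ± 0.65. Cdc45 was -5.28 and -5.39 at 2 h and -4.36 and -3.76 at 8 h, with no overlap. Splicing factors had a median of 0.10, with Hnrnpf at -0.74 ± 0.28, whose other probe gave 1.99, and Hnrnpm at -0.66 ± 0.29. P53 targets had 0.19 (16 of 22 above 0), led by Ei24 (2.84 ± 0.83) and the translesion polymerase gene Polk (1.53 ± 0.49).

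Stress and metabolic lists differed in their lean. Genes of the unfolded protein and ATF4 response had a median of 0.43 with 21 of 31 above 0. They included Ern1, the IRE1 sensor gene (0.80 ± 0.26), and Shmt2, a mitochondrial one-carbon enzyme gene (1.40 ± 0.52). The median was -0.03 without replicate 1 at 8 h and 0.71 without replicate 2 at 8 h. Cholesterol genes had a median of 0.23: Fdft1, the squalene synthase gene, was -3.89 and -4.09 at 2 h and -2.21 and -2.28 at 8 h (1.74 ± 0.48), and Stard4 was 0.75 ± 0.25 with another probe at -0.64. Lysosome genes had 0.18, with the proton pump gene Atp6v1b2 at 1.22 ± 0.35 and the autophagy receptor gene Sqstm1 at 1.39 ± 0.54. Glycolysis and hypoxia genes had -0.03, with Pfkl at 1.41 ± 0.55. The oxygen sensor gene Egln1, not well above background on either 2 h array, was 3.18-fold higher by the group means (-0.21 after normexp). Interferon genes had 0.24, with Irf1 at -0.82 ± 0.28 and Oasl1 at 0.87 ± 0.31. Clock genes had 0.12, with Bhlhe41 at 1.07 ± 0.53 and Clock at 0.53 ± 0.27. After cyclic loess the cholesterol median was 0.03, and after quantile normalization the interferon median was -0.05. With the 75th percentile over all probes the medians were below 0 for cholesterol (-0.033, 11 of 28 above 0), lysosome (-0.086, 14 of 36), interferon (-0.030, 15 of 32) and clock genes (-0.14, 8 of 17). Without replicate 1 at 2 h the cholesterol median was 0.0019 and the lysosome median -0.0018.

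**Figure D5:**
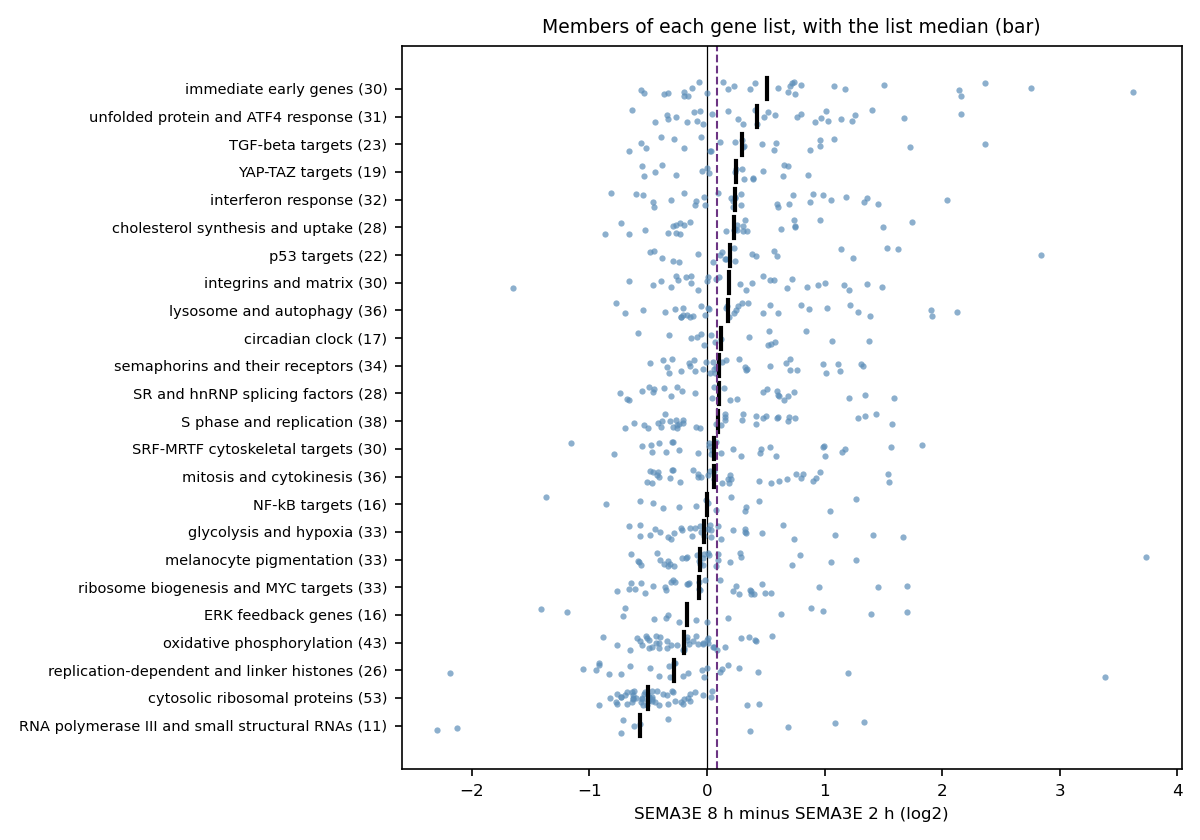
Each point is 1 gene's 8 h minus 2 h difference (log2), in rows by gene list with the number tested in brackets; black bars are list medians and the dashed line is the median of all genes (0.09). The immediate early genes have a median of 0.51 and the ribosomal proteins one of -0.50.

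The receptor gene Plxnd1 differed by less than its error at its brighter probe. It was 2.97 and 3.17 at 2 h and 2.99 and 3.28 at 8 h, a difference of 0.06 ± 0.26; a dimmer probe gave 1.09. Nrp2 was -0.30 ± 0.32 by its brighter probe and -1.20 ± 0.38 by a dimmer one, and Kdr was 0.34 ± 0.48. Nrp1 was not tested. Sema3e itself was above background on 0 of 2 arrays at 2 h and 1 of 2 at 8 h (-0.11 ± 0.38), which measures the cells' own transcript and not the added protein. The plexin effector genes Rras (0.33 ± 0.37) and Arf6 (1.01 ± 0.52) differed by less than 2 SE; Arf6 was 0.34 and -1.29 at 2 h. Among the 34 semaphorin and receptor genes tested 22 were above 0 and the median was 0.10. Plxna4 (1.32 ± 0.43) and Rnd2 (1.11 ± 0.50) had the smallest p, and the second Rnd2 probe gave 1.28.

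Actin and adhesion genes lay on both sides of 0. Actb was 5.40 and 5.24 at 2 h and 4.76 and 4.77 at 8 h, a difference of -0.55 ± 0.24, which was 0.03 after quantile normalization. Actg1 was -0.35 ± 0.25 by its brightest probe, and 3 of its 4 other probes lay above 0. Of 30 targets of SRF and MRTF, the factors that read free actin, 19 were above 0 and the median was 0.06. Cald1, the caldesmon gene, was -1.15 ± 0.29 with a second probe at -1.20, and Tagln, an actin-bundling protein gene, was -0.80 ± 0.25. Srf itself was -1.12 and -3.28 at 2 h and -0.85 and -1.21 at 8 h (1.17 ± 0.62). The YAP-TAZ targets Ccn1 (0.69 ± 0.50) and Ccn2 (0.23 ± 0.26) differed by less than 2 SE. Their list's median was 0.24, and -0.044 without replicate 1 at 2 h. Tead1 was -0.56 ± 0.31, with a dimmer probe at 0.28, and Asap1 was 0.48 ± 0.27. Among integrin and matrix genes the median was 0.19. Itga1 was not well above background on either 2 h array. With the lowest measurable signal put in for replicate 2 at 2 h, it was 2.66-fold higher at 8 h (-0.47 after normexp).

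The pigment cell identity genes were high at both times. Mitf was 3.40 and 3.49 at 2 h and 3.03 and 3.13 at 8 h (-0.36 ± 0.27); of its other 3 probes, 2 gave -2.68 and -2.42 and the dimmest 0.33. Dct was 0.01 ± 0.27, with 3 other probes between -0.84 and -0.48, and Pmel was -0.28 ± 0.27. Adjusted p-values for these 3 genes ran from 0.558 to 0.994.

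Untreated and drug-treated arrays were set beside the genes at least 2-fold apart without overlap. Replicate 1 of the untreated cells lay nearer to the 2 h mean than to the 8 h mean in 1210 of the 1712 genes higher at 8 h (70.7%) and in 270 of the 422 lower ones (64%). Replicate 2 of the untreated cells did so in 364 (21.3%) and 36 (8.53%). The cytochalasin D replicates did so in 24.9% and 52% of the higher genes. The untreated replicates thus lay on different sides in many of these genes, and the part of replicate 1 of the untreated cells in the time patterns was not tested.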

How the data were processed

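Total RNA was labelled with Cy3 and hybridised to 1-colour Agilent mouse arrays, 1 per sample, per the labels. The authors' deposited scanner files hold a background-corrected intensity per spot (Agilent Feature Extraction 11.5.1.1, design build mm9, per the file headers); the deposited table's intensity values have an unstated normalization and served as an alternative. No aligner applies, and headers place all arrays on 1 slide and in 1 scan. Outlier spots were dropped, spots of a probe averaged as log2, each array's 75th percentile subtracted, and 27673 of 55698 probes named through RefSeq accessions. Genes were tested with limma 3.58.1 (lmFit, eBayes, 4 groups, no covariates) in R 4.3.3; the fit had 4 residual degrees of freedom and was tested on simulated data. Text genes were the 10 with the smallest p in each direction, 5 per time pattern and direction, 2 per list and named receptor, pigment, actin and growth-response genes whatever their values. A gene that this rule chose is not reported here. Members, lists and tests were chosen with earlier results of these data known. The alternatives were the 4 SEMA3E arrays alone, normexp with an offset of 50, quantile normalization, another percentile, 2 other filters and the mean of probes. Others were the deposited table, an intensity trend, the replicate block and leaving out each array. Cyclic loess was added after the data were seen. Array number limits the precision. Promoters came from RefSeq (GRCm38.p6).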

Additional observations from a re-analysis of the deposited data

How the results depend on the processing

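Each group had 2 arrays. The comparison of 8 h with 2 h called 0 to 461 genes when 1 array was left out and 19 in the deposited table. The contrast of 2 h with the other times called 0 to 551 with 1 array left out, 4060 after normexp, 46 in the deposited table and 1 with an intensity trend. The late contrast called 0 to 0 with 1 array left out, 8 in the deposited table, and 0 after quantile normalization, cyclic loess, either other filter or an intensity trend. With the replicate block all 3 called 0 genes (smallest adjusted p in the late contrast 0.0612). The labels do not say that replicate numbers pair samples, and same-numbered deviations correlated between -0.147 and 0.14 over the 6 pairs of groups.

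Genes high at 2 h only numbered 105 to 446 with 1 array left out, 329 with the 75th percentile over all probes, 131 with probes above background on all arrays, 429 with no filter and 435 in the deposited table. Genes low at 2 h only numbered 303 to 1273, with 88 after normexp and 210 with probes above background on all arrays. Genes high at 8 h only numbered 274 to 1183, with 38 after normexp, 137 after quantile normalization, 179 with the 75th percentile over all probes, 107 with probes above background on all arrays, 836 with no filter and 133 after cyclic loess. Genes low at 8 h only numbered 11 to 199, with 1, 169, 51, 8 and 85 under the same settings except no filter, 12 with the mean of probes and 70 in the deposited table. Genes sustained high numbered 198 to 685, with 20 after normexp, 74 after quantile normalization, 76 with probes above background on all arrays, 3813 with no filter and 102 after cyclic loess. Genes sustained low numbered 24 to 129, with 1, 159, 4 and 115 under those settings except no filter, 40 with the 75th percentile over all probes and 43 in the deposited table.

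Of 105 genes chosen by the naming rule, 41 changed sign under some alternative; the cause was not tested. After normexp Catsperg2 was -0.50, Ccdc70 -0.47, Cfap57 -0.45, Zfp324 -0.40, Speer1 -0.38, Bcl9l -0.15, Pmp2 -0.47, Dop1a -0.28, Gbx1 -0.19, H2-Bl -0.35, Gfra4 -0.086, Rln1 -0.28, Zfp808 -0.82, Gja1 -0.68, Aim2 -0.73, Junb -0.46, Hes1 -0.56, Spry4 -0.67, Plxna4 -0.24, Ern1 -0.35, Egln1 -0.21, Oasl1 -0.20, Itga1 -0.47, Kdr -0.18 and Rras -0.15. With the 75th percentile over all probes Gfra4 was -0.063, Zfp808 -0.053, Gja1 -0.020, Plxnd1 -0.20, Dct -0.26 and Ccn2 -0.030. After cyclic loess Gfra4 was -0.0792, Zfp808 -0.25, Gja1 -0.095, Aim2 -0.17 and Pmel 0.061. After quantile normalization Gfra4 was -0.078, Zfp808 -0.066, Gja1 -0.15, Pmel 0.11 and Actb 0.034. In the deposited table Gfra4 was -0.14, Skil -0.34, Bhlhe41 -0.81, Sqstm1 -0.44, Hnrnpf 0.63, Tyr -0.29, Dct -0.54 and Actg1 0.67. With the mean of probes Hnrnpf was 0.62, Dct -0.47 and Actg1 0.66. With 1 array left out Gdf15 ran from -1.67 to 2.36, Gfra4 -0.84 to 1.24, Dars -0.72 to 0.033, Aim2 -0.35 to 0.97, Plxnd1 -0.0787 to 0.21, Sema3e -0.44 to 0.23, Kdr -0.33 to 1.02, Dct -0.062 to 0.074, Gja1 -0.97 to 1.46, Egr1 -2.95 to 2.28, Ddit4 -1.02 to 0.22 and Zfp808 -0.35 to 0.78. Without replicate 1 at 2 h 14 of the named genes passed.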
